A study of Mus musculus with 13 samples.

Results

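Superoxide dismutases turn superoxide into hydrogen peroxide, and catalase, glutathione peroxidases and peroxiredoxins remove the peroxide. The 10 genes described here cover that route: Sod1 (cytosolic copper-zinc dismutase), Ccs (the chaperone that loads copper onto the Sod1 protein), Sod2 (mitochondrial manganese dismutase), Sod3 (secreted dismutase), Cat (catalase of peroxisomes), Gpx1 and Gpx4 (glutathione peroxidases, the latter acting on lipid peroxides) and the peroxiredoxins Prdx1, Prdx5 and Prdx6. They were chosen by gene symbol, 10 of 53392 genes in the count table, to ask whether the rise of Sod1 is shared by other scavengers and by its chaperone. All 10 passed the filter on low counts, among 14317 genes tested.

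RNA of whole liver was sequenced from 13 female mice of 8 to 14 weeks that had taken 28% of their calories as ethanol for 4 weeks. All were homozygous for a Rosa26 allele in which a loxP-flanked stop precedes the reverse tetracycline transactivator (rtTA), and carried Albumin-Cre, which removes the stop in liver; Dox then lets rtTA drive a TRE-ASAH1 transgene for acid ceramidase where that transgene is present. The groups were ASAH- Etoh-Dox (no transgene, Dox at 200 mg/l, n = 4), ASAH+ Etoh-Dox (transgene and Dox, n = 5) and ASAH+ Etoh (transgene, no Dox, n = 4). No group without ethanol was analysed here, and in the comparison of the ASAH+ groups Dox itself and the induced transgene cannot be told apart. ASAH- Etoh-Dox and ASAH+ Etoh differ in both genotype and Dox, which cannot be told apart there either. For ASAH+ mice the sample titles contradict the descriptions and the induction labels as to which mice received Dox, and groups were taken from the descriptions. Asah1, the gene of the transgene, was at 40.0 to 55.0 CPM (a gene's count relative to the scaled library total) in ASAH- Etoh-Dox, 9668 to 15940 CPM in ASAH+ Etoh-Dox and 44.2 to 48.3 CPM in ASAH+ Etoh, the order that the descriptions give. Its log2 fold change was 8.01 over ASAH- Etoh-Dox (SE 0.20, adjusted p = 1.24e-11) and 8.10 over ASAH+ Etoh (SE 0.21, adjusted p = 1.13e-11), and 0.09 (SE 0.15, adjusted p = 0.906) between the groups that were not induced. Each mouse had 17819486 to 35358711 counts. ASAH+ Etoh-Dox replicate 1 had the most counts, the lowest sum of hepatocyte markers (81310 CPM) and the highest CPM of all 13 mice for 5 of the 10 genes (Sod2, Gpx1, Gpx4, Prdx1 and Prdx6). Without it Sod1 kept its edgeR call over ASAH- Etoh-Dox (log2 fold change 0.71, adjusted p = 0.0392) and over ASAH+ Etoh (1.03, adjusted p = 0.000601), and the 9 other genes lay between -0.21 and 0.16 and between -0.17 and 0.33. The log2 ratio of Dbp to Arntl, clock genes that peak at different times of day, differed widely between mice, from -0.96 to 6.49 in ASAH- Etoh-Dox, -1.64 to 6.78 in ASAH+ Etoh-Dox and 1.60 to 6.06 in ASAH+ Etoh.

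Sod1 (ENSMUSG00000022982.10; chr16:90220754-90226329 of GRCm38, plus strand) was highest in every mouse with the induced transgene. In ASAH+ Etoh-Dox it was at 802, 855, 753, 846 and 974 CPM. In ASAH- Etoh-Dox it was at 510, 604, 484 and 505 CPM, and in ASAH+ Etoh at 399, 414, 451 and 407 CPM. None of the 3 groups overlapped: the lowest induced mouse lay above the highest mouse of either other group, and every ASAH- Etoh-Dox mouse lay above every ASAH+ Etoh mouse.

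Over ASAH- Etoh-Dox, which also received Dox, Sod1 rose 1.61-fold (log2 fold change 0.69, SE 0.09, 95% interval 0.49 to 0.88, edgeR adjusted p = 0.0212), and it was higher in 20 of 20 pairs of mice. Over ASAH+ Etoh it rose 2.03-fold (log2 fold change 1.02, SE 0.09, 95% interval 0.82 to 1.22, adjusted p = 0.000197), again in 20 of 20 pairs. ASAH- Etoh-Dox had 1.26 times the Sod1 of ASAH+ Etoh (log2 fold change 0.33, SE 0.10, adjusted p = 0.389), which did not pass the threshold of 0.1 in edgeR and did in DESeq2 (adjusted p = 0.0917 on all 13 mice). The comparisons share mice, so their values are not independent. The rise over ASAH- Etoh-Dox kept its size but not its edgeR call when only the mice of those 2 groups were fitted (log2 fold change 0.69, adjusted p = 0.226), with a replicate block (0.63, adjusted p = 0.494), or when ASAH- Etoh-Dox replicate 1, 3 or 4 was left out (adjusted p = 0.155, 0.169 and 0.137). DESeq2 on the mice of the 2 groups did call it (log2 fold change 0.69, adjusted p = 2.16e-06).

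**Figure D1:**
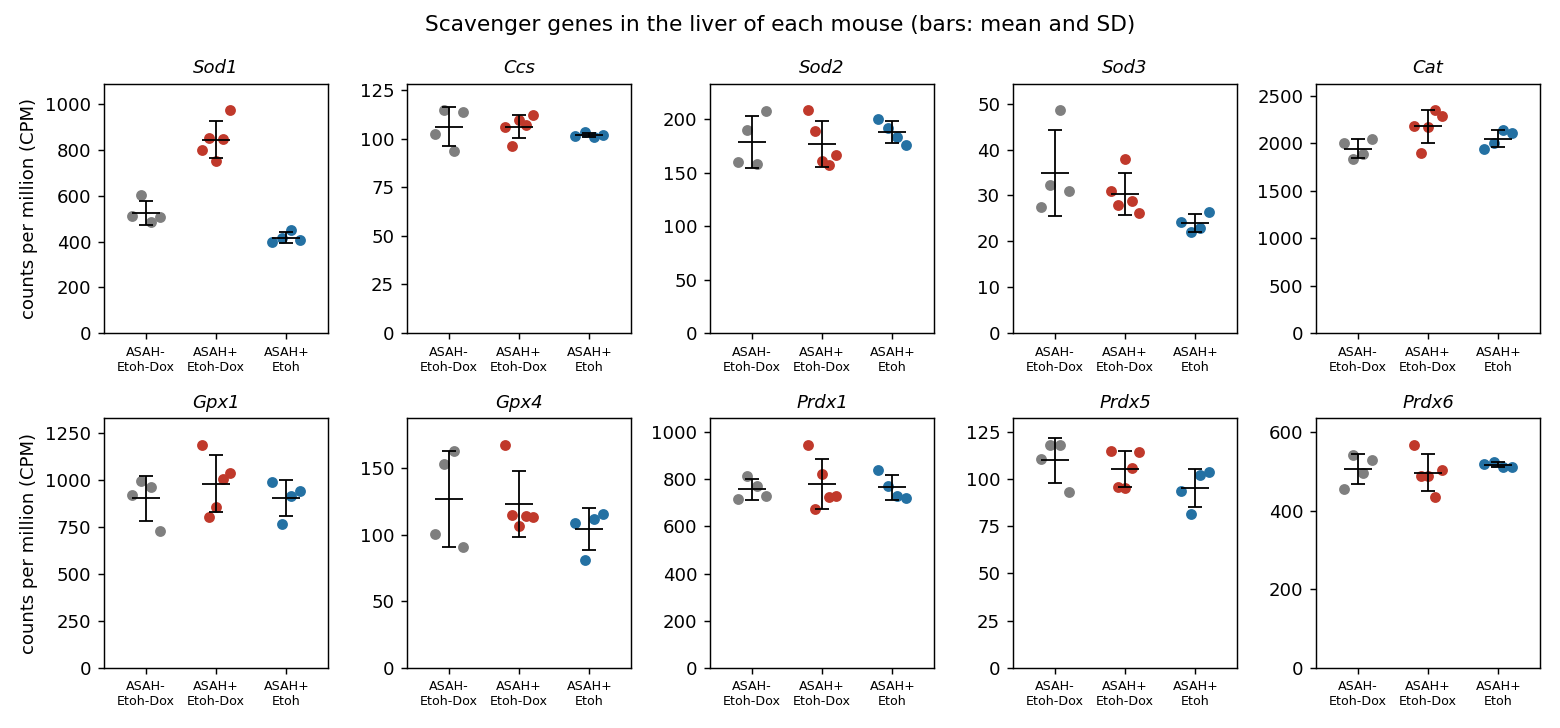
CPM of each of the 10 genes (vertical axes, each from 0) in each mouse (points) of the 3 groups, with the mean and SD as bars. Sod1 lies at 753 to 974 CPM in the 5 ASAH+ Etoh-Dox mice, above all other mice, while the ASAH+ Etoh-Dox mice of the other 9 genes overlap the ASAH- Etoh-Dox mice.

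Of the 10 genes, 1 (Sod1) passed an adjusted p of 0.1 over ASAH- Etoh-Dox, where 0.014% of all 14317 genes passed, and the same gene was the 1 of 10 that passed over ASAH+ Etoh, where 0.014% passed as well. In this edgeR fit the only other gene past the threshold in either comparison was Asah1. Over ASAH+ Etoh the edgeR calls over all genes depended on the setting. There were 8 without ASAH+ Etoh replicate 2, 4 with no filter on low counts, 3 on the 2 groups and 1 with Asah1 left out. DESeq2 on all 13 mice called 12 and 98 genes, 0.0759% and 4.94% of those that kept an adjusted p. These were 15808 genes over ASAH- Etoh-Dox but only 1982 over ASAH+ Etoh, so the 2 shares have unlike bases. Of the 10 it called Sod1 in both comparisons, and Sod3 had no adjusted p in the second. At an unadjusted p under 0.05 in the higher direction there was 1 of 10 over ASAH- Etoh-Dox (Sod1, against 1.29% of all genes), and 2 of 10 over ASAH+ Etoh (Sod1 and Sod3, against 4.05%). Between ASAH- Etoh-Dox and ASAH+ Etoh, 0 of 10 passed in edgeR, against 0.014% of all genes; 2 of 10 (Sod1 and Sod3) had an unadjusted p under 0.05 in the higher direction, against 5.08% of all genes, and DESeq2 on all 13 mice called 1 (Sod1; 1.73% of all genes with an adjusted p) and limma-voom 0 (0.00698%). Groups that did not overlap were seen for 1 of 10 genes over ASAH- Etoh-Dox (Sod1, higher; 0.44% of all genes were higher and 0.447% lower), for 1 of 10 over ASAH+ Etoh (Sod1, higher; 1.09% and 1.49%) and for 2 of 10 between the groups without induction (Sod1 and Sod3, higher in ASAH- Etoh-Dox; 3.09% and 2.4%).

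Ccs (ENSMUSG00000034108.5; chr19:4825366-4839332, minus strand), the copper chaperone of Sod1, had nearly the same mean in all groups. It was at 103, 115, 93.6 and 114 CPM in ASAH- Etoh-Dox, at 106, 96.4, 110, 107 and 112 CPM in ASAH+ Etoh-Dox, and at 102, 103, 101 and 102 CPM in ASAH+ Etoh. The 3 groups overlapped. Its log2 fold change over ASAH- Etoh-Dox was 0.00 (SE 0.08, 95% interval -0.16 to 0.16, adjusted p = 1.00) and over ASAH+ Etoh 0.06 (SE 0.08, 95% interval -0.10 to 0.22, adjusted p = 0.897). Both intervals end below the log2 fold change of Sod1 in the same comparison.

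The ratio of Sod1 to Ccs within a library does not depend on its depth. It was 7.55, 8.82, 6.84, 7.86 and 8.65 in ASAH+ Etoh-Dox, 4.95, 5.25, 5.15 and 4.43 in ASAH- Etoh-Dox, and 3.91, 3.99, 4.44 and 3.98 in ASAH+ Etoh. Every induced mouse had a higher ratio than every other mouse. The difference in mean log2 ratio was 0.68 over ASAH- Etoh-Dox and 0.96 over ASAH+ Etoh (exact two-sided permutation p = 0.00794 in both, the smallest that 5 against 4 mice can give; 0.0119 after Benjamini-Hochberg adjustment over the 3 comparisons). Between ASAH- Etoh-Dox and ASAH+ Etoh it was 0.28 (exact permutation p = 0.0571, adjusted 0.0571), with the groups overlapping in 1 of 16 pairs of mice. The rise of Sod1 was known when this ratio was chosen and Ccs was level, so these p values restate the separation of Sod1 and add no independent evidence. Nor is the separation particular to Ccs. The ratio of Sod1 to each of the 9 other genes was higher in every induced mouse than in every ASAH- Etoh-Dox mouse for 7 genes. The exceptions were Gpx1 and Gpx4, in 19 and 18 of 20 pairs. Against every ASAH+ Etoh mouse it was higher for 8 (all but Gpx4, in 19 of 20 pairs). Sod1 alone was higher in 20 of 20 pairs in both comparisons, so these counts largely restate its rise. They show nothing particular to the 9 genes, and the share over all genes tested is not given.

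**Figure D2:**
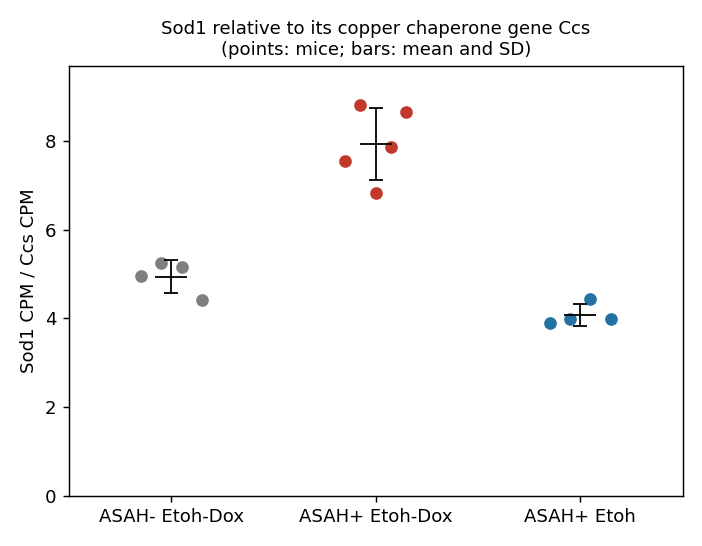
Ratio of Sod1 CPM to Ccs CPM (vertical axis, from 0, no unit) in each mouse (points), with the mean and SD of each group as bars. The 5 ASAH+ Etoh-Dox mice lie at 6.84 to 8.82 and the highest of the other mice at 5.25.

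The other dismutases were measured at lower levels. Sod2 averaged 179 ± 24.3 CPM (SD, n = 4) in ASAH- Etoh-Dox, 176 ± 21.6 CPM (n = 5) in ASAH+ Etoh-Dox and 188 ± 10.4 CPM (n = 4) in ASAH+ Etoh, and the groups overlapped. Its transcripts share 50 or more stretches of 31 bases with each of 22 other genes: 2199 of 10012 with AC166110.4, which had no count in any mouse, 2001 with Rps6ka2, at 0.58% of the CPM of Sod2, and 95 with Riok3, the most abundant, at 42.3%. Together the 22 genes were at 268.5% of the CPM of Sod2. The effect of this shared sequence on the count of Sod2 was not tested. Its log2 fold changes were -0.02 (95% interval -0.25 to 0.21) over ASAH- Etoh-Dox and -0.09 (95% interval -0.32 to 0.14) over ASAH+ Etoh. With a term for Dbp over Arntl (log2) in the fit they were 0.00 and -0.04.

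Sod3 had a different order of groups from Sod1. It was at 27.5, 32.2, 48.6 and 31 CPM in ASAH- Etoh-Dox, at 31.1, 27.9, 37.9, 28.7 and 26.1 CPM in ASAH+ Etoh-Dox, and at 24.2, 21.9, 23.0 and 26.5 CPM in ASAH+ Etoh. The Dox-treated groups overlapped each other, and ASAH- Etoh-Dox lay wholly above ASAH+ Etoh. Its log2 fold changes were -0.20 (SE 0.15, adjusted p = 1.00) over ASAH- Etoh-Dox, 0.34 (SE 0.15, 95% interval 0.02 to 0.67, adjusted p = 0.658) over ASAH+ Etoh, and 0.54 (SE 0.16, adjusted p = 0.389) for ASAH- Etoh-Dox over ASAH+ Etoh. Without ASAH- Etoh-Dox replicate 3, which had the highest value, the first of these was 0.00 and the third 0.34 (adjusted p = 0.751).

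Cat, which splits peroxide into water and oxygen, had the highest CPM of the 10 genes. It was at 1999, 1838, 1888 and 2050 CPM in ASAH- Etoh-Dox, at 2186, 1895, 2170, 2347 and 2287 CPM in ASAH+ Etoh-Dox, and at 1941, 2005, 2144 and 2104 CPM in ASAH+ Etoh. Induced mice were higher than ASAH- Etoh-Dox mice in 18 of 20 pairs, with ASAH+ Etoh-Dox replicate 2 inside the range of the controls. The log2 fold change was 0.16 (SE 0.08, 95% interval 0.00 to 0.33, adjusted p = 1.00) over ASAH- Etoh-Dox and 0.09 (SE 0.08, 95% interval -0.08 to 0.25, adjusted p = 0.831) over ASAH+ Etoh.

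The glutathione peroxidases did not pass the test in any comparison. Gpx1 averaged 902 ± 120 CPM in ASAH- Etoh-Dox, 979 ± 152 CPM in ASAH+ Etoh-Dox and 903 ± 96.6 CPM in ASAH+ Etoh, with log2 fold changes of 0.12 over each of the other groups (95% intervals -0.15 to 0.39 and -0.16 to 0.39), which leaving out 1 mouse moved to as little as 0.03 and as much as 0.18. Gpx4 averaged 127 ± 36.4, 123 ± 24.9 and 104 ± 15.6 CPM in the same order of groups. Its intervals were the widest of the 10 genes, -0.44 to 0.36 over ASAH- Etoh-Dox and -0.16 to 0.65 over ASAH+ Etoh. The transcripts of Gpx4 share 684 of 1767 stretches of 31 bases with the pseudogene Gpx4-ps2, which was at 13.4% of the CPM of Gpx4. The effect on the count of Gpx4 was not tested, and the sum of both genes averaged 144 ± 34.6, 139 ± 28.6 and 119 ± 17.0 CPM, the same order of groups as Gpx4 alone.

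The peroxiredoxins reduce peroxides with a reactive cysteine. Prdx1 ranged from 674 to 945 CPM in ASAH+ Etoh-Dox, 718 to 813 CPM in ASAH- Etoh-Dox and 719 to 839 CPM in ASAH+ Etoh. Prdx6 ranged from 435 to 568, 455 to 543 and 513 to 525 CPM in the same order. Both genes overlapped between all groups. Prdx5 ranged from 95.1 to 115, 93.0 to 118 and 81.6 to 103 CPM, also overlapping; its exons share 409 bases with Trmt112 on the opposite strand. Over ASAH- Etoh-Dox the log2 fold changes were 0.04 for Prdx1 (95% interval -0.17 to 0.25), -0.06 for Prdx5 (95% interval -0.27 to 0.15) and -0.03 for Prdx6 (95% interval -0.21 to 0.15). Over ASAH+ Etoh they were 0.03 for Prdx1 (95% interval -0.19 to 0.24), 0.15 for Prdx5 (95% interval -0.07 to 0.36) and -0.06 for Prdx6 (95% interval -0.24 to 0.12). Prdx5 had 0.21 (95% interval -0.02 to 0.43, adjusted p = 0.570) between the groups without induction.

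For the 9 genes other than Sod1, the log2 fold changes over ASAH- Etoh-Dox lay between -0.20 and 0.16 with a median of -0.02, beside a median of 0.00 over all genes tested. Over ASAH+ Etoh they lay between -0.09 and 0.34 with a median of 0.09, beside 0.01 over all genes. The upper end of the 95% interval was below the log2 fold change of Sod1 for 9 of 9 genes in each of these comparisons; the same held for 82.8% and 89.4% of all genes tested. Leaving out 1 mouse turned the log2 fold change or moved it by over 1.5 times for 8 of the 9 genes in each comparison, by at most 0.20 over ASAH- Etoh-Dox (Sod3) and 0.14 over ASAH+ Etoh (Gpx4). The 2 comparisons share the ASAH+ Etoh-Dox mice.

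**Figure D3:**
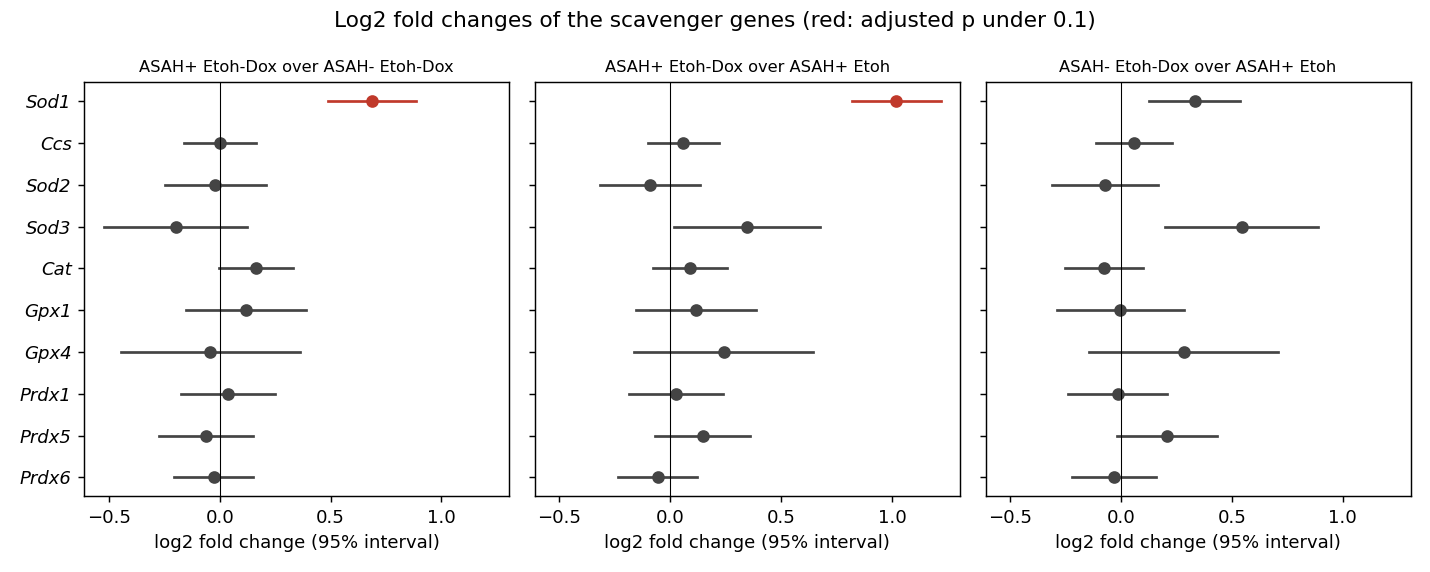
Log2 fold change (points) and 95% interval (lines) of the 10 genes in each of the 3 comparisons, with genes past an adjusted p of 0.1 in red. Sod1 is the 1 red gene in the first and second panels, at 0.69 and 1.02, and no gene is red in the third.

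Compared per kilobase of the longest principal transcript, Sod1, Gpx1 and Cat were the most abundant in every group. In ASAH- Etoh-Dox they were at 841 ± 112 (Gpx1), 820 ± 83.3 (Sod1) and 744 ± 37.4 (Cat) CPM per kilobase, with overlapping SD ranges. Within each mouse of this group Sod1 lay above Cat, from 788 against 784 (replicate 4) to 943 against 703 (replicate 2). In ASAH+ Etoh-Dox the order was Sod1 (1320 ± 128), Gpx1 (913 ± 142) and Cat (833 ± 66.4 CPM per kilobase), and in ASAH+ Etoh Gpx1 (843 ± 90.1), Cat (784 ± 35.3) and Sod1 (651 ± 35.8 CPM per kilobase). In both ASAH+ groups the SD ranges of Gpx1 and Cat overlapped, and that of Sod1 overlapped neither. Prdx1, Prdx6, Gpx4, Ccs, Prdx5, Sod2 and Sod3 followed in that order in all groups. In ASAH- Etoh-Dox the SD ranges of Gpx4 (132 ± 37.9), Ccs (99.5 ± 9.39) and Prdx5 (87.0 ± 9.30 CPM per kilobase) overlapped from each to the next. The place of Sod1 depends on the length used: with all merged exons (3970 bases in place of 641) it was the fourth of the 10, not the first, in ASAH+ Etoh-Dox. Sod1 made up 14.6 ± 1.57% of the summed CPM of the 10 genes in ASAH+ Etoh-Dox, 10.1 ± 0.777% in ASAH- Etoh-Dox and 8.08 ± 0.426% in ASAH+ Etoh.

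The stretch before the RefSeq start of Sod1 is shown because Sod1 was the gene of the 10 that passed the test. The 250 bases are from RefSeq on GRCm38.p6, chr16:90220512-90220761, plus strand, written 5′ to 3′. The last 8 lie inside the gene as GENCODE places it. Capitals mark matches on either strand to the antioxidant response element core (TGACNNNGC) and the GC box (GGGCGG), some of which overlap; the metal response element core (TGCNCNC) had no match.
Sod1: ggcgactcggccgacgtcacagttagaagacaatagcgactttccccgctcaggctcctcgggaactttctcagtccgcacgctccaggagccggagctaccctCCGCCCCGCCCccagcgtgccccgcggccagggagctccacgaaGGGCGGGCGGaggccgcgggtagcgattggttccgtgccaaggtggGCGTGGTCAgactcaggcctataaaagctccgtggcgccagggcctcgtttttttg
The antioxidant response element core matched 1 time, on the minus strand, and the GC box 4 times. Of 32817 promoters of this length, 10.2% held the first motif, 32.7% the GC box and 44.4% the metal response element core. Promoter entries were matched for 7 of the 10 genes, 10 entries in all, of which 4 are of Gpx4. The antioxidant response element core was in 2 of the 10 entries (Sod1 and Prdx1), the GC box in 8 and the metal response element core in 4 (3 of Gpx4 and 1 of Prdx5). By gene these are 2, 6 and 2 of the 7, and 2 of the entries of Gpx4 overlap and hold the same sites. A match of letters is a description and shows no binding.

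The genes around Sod1 on chromosome 16 were measured in the same libraries. Scaf4, which overlaps the Sod1 gene on the opposite strand with no shared exon bases, had log2 fold changes of -0.04 (SE 0.13) over ASAH- Etoh-Dox and 0.01 (SE 0.13) over ASAH+ Etoh. Tiam1, the nearest on the other side at 77.0 kb, had 0.36 (SE 0.35) and 0.49 (SE 0.36). Of the 10 nearest tested genes, 0 passed in any comparison by edgeR or limma-voom, where at most 0.014% of all genes passed. In edgeR 0 had an unadjusted p under 0.05. Of all genes, 1.29% to 5.08% were higher and 1.57% to 4.11% lower at that p.

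Within groups, the genes closest to Sod1 over the 13 mice, by Pearson correlation of log2 CPM less the group means, were Rpsa (r = 0.892), Prkab1 (0.883), Rpl8 (0.878), Fau (0.878) and Lzts3 (0.876), other than the 10. These are descriptions, in which all genes of a mouse share its library and depth. Among the 10 genes, r with Sod1 ran from -0.561 (Sod3) to 0.396 (Ccs).

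Of 92 further genes in 6 lists, 87 were tested, and 0 passed in edgeR in any comparison. At an unadjusted p under 0.05, 2 were higher and 2 lower over ASAH- Etoh-Dox (1.29% and 1.57% of all genes), 3 and 2 over ASAH+ Etoh (4.05% and 3.24%), and 4 and 5 for ASAH- Etoh-Dox over ASAH+ Etoh (5.08% and 4.11%). limma-voom called 0 in each comparison. DESeq2 on all 13 mice called 0 of the 88 with an adjusted p in the first, 0 of 32 in the second and 1 of 77 (Maoa, lower) in the third, where 1.73% of all genes with an adjusted p passed. Fitted to 2 groups at a time it called 0 of 88, 0 of 87 and 2 of 83 (Cyba higher and Me1 lower), the last against 1.57% of all genes with an adjusted p in that fit.

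Other peroxide scavengers and their reductases (20 of 21 tested) had a median log2 fold change of 0.00 over ASAH- Etoh-Dox and -0.01 over ASAH+ Etoh. The smallest p values over ASAH- Etoh-Dox were those of Txnrd2, the mitochondrial thioredoxin reductase (log2 fold change 0.16, SE 0.08), and Sesn3 (0.15, SE 0.11), and over ASAH+ Etoh those of Prdx4, a peroxiredoxin of the endoplasmic reticulum (0.25, SE 0.11), and Sesn3 (0.23, SE 0.11). Between the groups without induction they were Prdx4 (0.26, SE 0.11) and Glrx2 (-0.20, SE 0.09).

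Genes of copper uptake, delivery and export (14 tested) had medians of -0.06 and -0.07. Over ASAH- Etoh-Dox the smallest p values were those of the metallothioneins Mt2 (log2 fold change -1.19, SE 0.51, adjusted p = 1.00) and Mt1 (-0.95, SE 0.42, adjusted p = 1.00), and over ASAH+ Etoh those of Cp, the copper oxidase of plasma (-0.20, SE 0.10), and Cox17 (0.19, SE 0.12). Cox17 (0.25, SE 0.12) and Cp (-0.19, SE 0.11) also led between the groups without induction.

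The list of selenoprotein synthesis, on which the glutathione peroxidases depend, also holds genes of selenium transport and binding, among them Selenbp1. Its medians were 0.00 and 0.01 over 10 genes. Selenop, the plasma selenium carrier, had the smallest p in all 3 comparisons (log2 fold changes -0.09, -0.22 and -0.12), with Pstk (0.15), Scly (0.14) and Selenbp1 (-0.12) next in turn. Regulators of scavenger genes had medians of -0.01 and -0.07 over 10 genes. Hsf1 had the smallest p in each comparison (-0.12, 0.14 and 0.25), followed by Ppargc1a (-0.26 and -0.30) and, in the third, Nfe2l2 (-0.18).

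Sources of superoxide and peroxide (23 of 26 tested) had medians of -0.01 and 0.00. Over ASAH- Etoh-Dox they were led by Maoa (log2 fold change 0.23, SE 0.09) and Cyp2e1, the ethanol-oxidizing cytochrome (-0.31, SE 0.17), and over ASAH+ Etoh by Uox (-0.18, SE 0.08) and Cyba (0.56, SE 0.28). Maoa (-0.36, SE 0.10, adjusted p = 0.389) and Cyba (0.89, SE 0.29, adjusted p = 0.392) led between the groups without induction. NRF2 target and glutathione genes (10 of 11 tested) had medians of 0.16 and 0.12, with Me1 (0.47, SE 0.17) and Gclm (0.25, SE 0.12) first over ASAH- Etoh-Dox, Gsr (0.23, SE 0.11) and Gss (0.13, SE 0.09) over ASAH+ Etoh, and Me1 (-0.45, SE 0.17) and Gclm (-0.26, SE 0.12) in the third comparison.

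**Figure D4:**
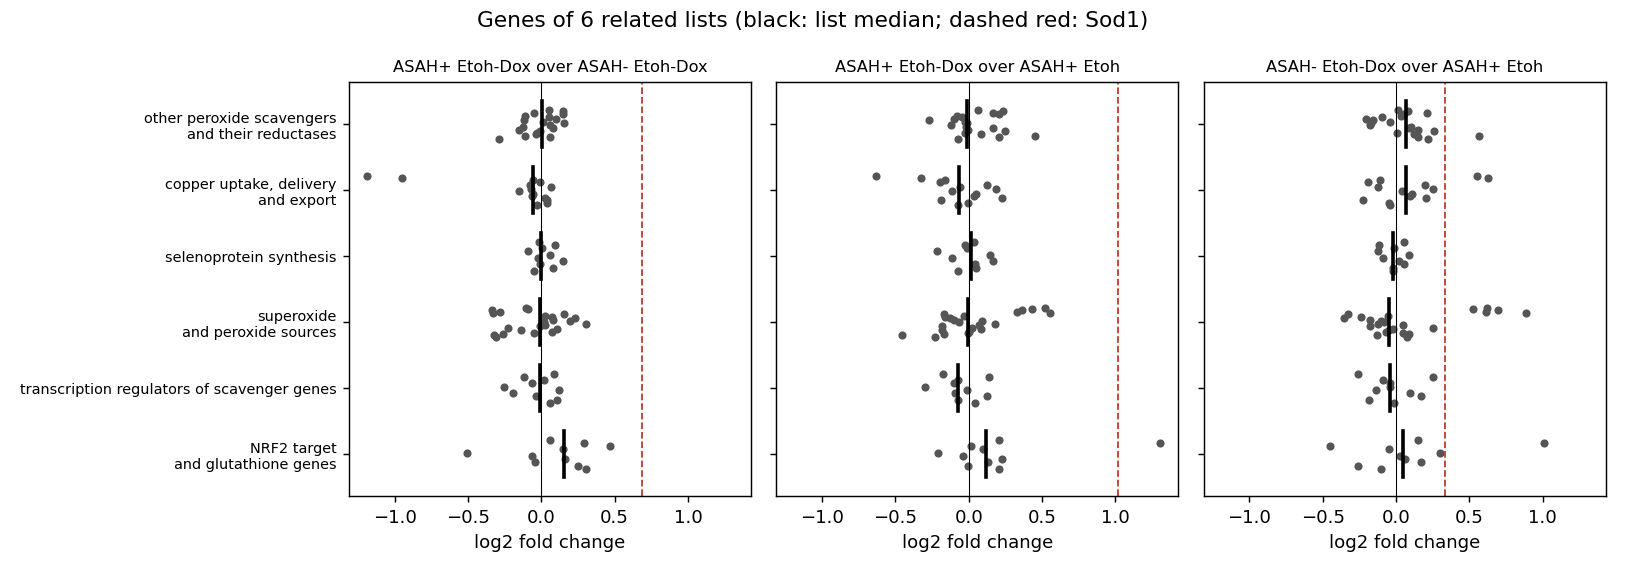
Log2 fold change of each tested gene (points) of the 6 lists in the 3 comparisons, with the list median as a black bar and Sod1 as a dashed red line. List medians lie between -0.07 and 0.16, and Sod1 at 0.69, 1.02 and 0.33.

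Whole liver holds several cell types, and fewer cells of a type cannot be told apart from less RNA per cell. Of 47 marker genes tested, 0 passed in edgeR or limma-voom in any comparison, and none of the 51 listed was at 0 in every mouse. At an unadjusted p under 0.05 in edgeR, 0 were higher and 9 lower over ASAH- Etoh-Dox (1.29% and 1.57% of all genes), 7 and 7 over ASAH+ Etoh (4.05% and 3.24%), and 16 and 0 for ASAH- Etoh-Dox over ASAH+ Etoh (5.08% and 4.11%).

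DESeq2, unlike edgeR, called markers. Over ASAH- Etoh-Dox it called 1 of the 48 with an adjusted p when fitted to all 13 mice (Serpina1a, lower, beside 0.0759% of all such genes) and 0 of 49 when fitted to 2 groups (0.0578%). Over ASAH+ Etoh it called 5 of 12 in the fit to all mice (Hba-a1, Hba-a2 and Hbb-bs higher, Cps1 and Serpina1a lower, beside 4.94% of all genes with an adjusted p) and 9 of 43 in the fit to 2 groups (all 6 red cell markers higher, Clec4g, Cps1 and Fcgr2b lower, beside 0.839% of such genes). For ASAH- Etoh-Dox over ASAH+ Etoh it called 5 of 31 in the first fit (Apoa1, Hba-a1, Hba-a2, Hbb-bs and Hbb-bt, all higher, beside 1.73% of such genes) and 4 of 34 in the second (Apoa1, Ecm1, Hba-a2 and Hbb-bt, all higher, beside 1.57% of such genes).

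Hepatocyte markers (6 of 6 tested, led by Alb at 90340 CPM) summed to 118700 ± 9079 CPM in ASAH- Etoh-Dox, 103500 ± 13660 CPM in ASAH+ Etoh-Dox and 109400 ± 11490 CPM in ASAH+ Etoh. In edgeR, 2 of 6 were lower in the induced mice at an unadjusted p under 0.05 over ASAH- Etoh-Dox (1.57% of all genes). Over ASAH+ Etoh 2 of 6 were lower as well (3.24%). Median log2 fold changes were -0.23 and -0.07. At that p, 1 of 6 was higher in ASAH- Etoh-Dox than in ASAH+ Etoh (5.08% of all genes).

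Red cell markers, led by Hbb-bs at 204 CPM, summed to 231, 753, 1720 and 215 CPM in ASAH- Etoh-Dox, to 690, 241, 878, 355 and 648 CPM in ASAH+ Etoh-Dox, and to 135, 160, 175 and 192 CPM in ASAH+ Etoh. All 6 had an unadjusted p under 0.05 in the higher direction for each Dox-treated group over ASAH+ Etoh (4.05% of all genes for the induced group and 5.08% for the other), and 0 of 6 over ASAH- Etoh-Dox. Sinusoidal endothelial markers (most abundant Fcgr2b, 39.9 CPM) summed to 183 ± 49.9 CPM in ASAH- Etoh-Dox, 144 ± 16.5 CPM in ASAH+ Etoh-Dox and 192 ± 25.4 CPM in ASAH+ Etoh, with 4 of 6 lower in the induced mice at an unadjusted p under 0.05 over ASAH- Etoh-Dox (1.57% of all genes) and 5 of 6 over ASAH+ Etoh (3.24%). Stellate markers (Ecm1, 123 CPM) summed to 267 ± 11.1, 230 ± 17.6 and 221 ± 16.3 CPM, and Kupffer cell markers (Cd5l, 138 CPM) to 428 ± 170, 349 ± 106 and 278 ± 28.6 CPM, in the same order. At the same p, 3 of 6 stellate markers were lower over ASAH- Etoh-Dox (1.57% of all genes). In ASAH- Etoh-Dox 4 of 6 stellate and 4 of 6 Kupffer cell markers were higher than in ASAH+ Etoh (5.08%). ASAH- Etoh-Dox replicate 3 stood apart, with sums of 676 CPM for Kupffer cell and 252.8 CPM for sinusoidal markers. The rest of its group lay at 315.2 to 402.2 CPM and 136.8 to 181.9 CPM. Sums were 33.2, 33.4 and 29.3 CPM for smooth muscle cells and fibroblasts (Col15a1), 49.6, 39.4 and 44.4 CPM for cholangiocytes (Spp1), 1.45, 1.09 and 1.43 CPM for neutrophils (S100a9) and 2.61, 2.86 and 1.57 CPM for lymphocytes (Cd79a), of which 1 of 4 tested was higher at that p in each Dox-treated group than in ASAH+ Etoh. The part of these cells in the values of Sod1 was not tested.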

How the data were processed

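Per the labels and the study's methods, the authors made stranded poly(A) libraries, mapped reads with Salmon to GENCODE transcripts on GRCm38.p6, then used tximport for gene totals. What the authors deposited are expected counts per gene, and 100% of them were whole, with no tolerance and before any rounding made here. Any rounding of the expected counts was therefore made before deposit. Counts were tested in edgeR 4.0.16 (quasi-likelihood, robust, filterByExpr, TMM) on all 13 mice with 3 group means. P values were Benjamini-Hochberg adjusted over all 14317 genes tested, and an adjusted p under 0.1 was called. CPM uses TMM-scaled library sizes. The Sod1 to Ccs ratio (pseudocount 0.5 CPM) was compared by exact permutation. No threshold had been set for it; 0.1 was taken after its p values were seen, only to compare settings. Alternatives used DESeq2 1.42.0, limma 3.58.1, other scaling and filters, a replicate block, a covariate (Dbp over Arntl, log2), and each mouse left out. Positions are from GENCODE M21 (53355 of 53392 identifiers matched). Named genes were the 10 members, Asah1, the 2 smallest p values of each list in each comparison, and the neighbours, most similar genes, and most abundant markers described; DESeq2-called genes and those sharing sequence with a member were added after seeing the data. The members and lists were chosen with earlier results of these data known.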

Additional observations from a re-analysis of the deposited data

Results flagged for a closer look

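In 1 of 30 combinations of gene and group a single mouse stood far from the others of its group: Gpx4 in ASAH+ Etoh-Dox replicate 1 was at 167.5 CPM, and the nearest of the other 4 mice was at 114.7 CPM. Chance gives about 1 in 20 such gaps, 1.5 of 30. In that mouse the pseudogene Gpx4-ps2 was at 22.6 CPM, so the sum of both (190 CPM) was also the highest of its group, whose other mice summed to 122 to 132 CPM. The same mouse had the highest CPM of all 13 for Sod2, Gpx1, Prdx1 and Prdx6 as well.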

How the results depend on the processing

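Over ASAH+ Etoh, Sod1 stayed past the threshold under all 9 other settings (log2 fold change 0.96 to 1.04) and without each mouse (0.96 to 1.05). Over ASAH- Etoh-Dox it stayed higher throughout, but was not called when edgeR was fitted to the 2 groups (0.69, adjusted p = 0.226) or with a replicate block (0.63, adjusted p = 0.494), so that 0 of the 10 genes were called; fewer mice and more coefficients entered these fits. Without each mouse it was 0.64 to 0.76 and 0 to 1 genes were called. For ASAH- Etoh-Dox over ASAH+ Etoh, DESeq2 called 1 gene, Sod1, on all 13 mice (0.32, adjusted p = 0.0917) and on the 2 groups (0.32, adjusted p = 0.0995). The adjusted p of Sod1 ran from 0.0917 to 0.689 over the 9 other settings and from 0.24 to 0.707 without each mouse. The cause of these differences was not tested. The 9 other genes were called in 0 of 593 refits; a further 1, Sod3 over ASAH+ Etoh in DESeq2 on all 13 mice, gave no adjusted p. Signs turned 29 times, all at sizes up to 0.10: with the replicate block for Ccs over ASAH- Etoh-Dox (-0.0156) and Gpx1 between the groups without induction (0.00444), and otherwise on leaving out 1 mouse. Those ranges over ASAH- Etoh-Dox were -0.0540 to 0.0406 (Ccs), -0.0851 to 0.0611 (Sod2), -0.284 to 0.00426 (Sod3), -0.175 to 0.101 (Gpx4), -0.0382 to 0.0867 (Prdx1) and -0.0777 to 0.0176 (Prdx6); over ASAH+ Etoh -0.0637 to 0.0728 (Prdx1); and between the groups without induction -0.0743 to 0.0869 (Gpx1), -0.0606 to 0.0326 (Prdx1) and -0.0661 to 0.00162 (Prdx6). The log2 ratio of Sod1 to Ccs kept its direction and side of 0.1 with each pseudocount and without each mouse (0.63 to 0.73, 0.92 to 1.01 and 0.25 to 0.33). By merged exon length, chosen after seeing the data, Sod1 ranked 4 of 10 and not 1 in ASAH+ Etoh-Dox, 4 and not 2 in ASAH- Etoh-Dox, and 5 and not 3 in ASAH+ Etoh. Same-numbered mice had mean correlations of -0.13, 0.06 and -0.06, beside 0.03, -0.01 and 0.02 for other pairs. With 4 same-numbered pairs in each comparison, these means cannot settle whether replicate numbers pair the mice. The block moved the calls over all genes from 2, 2 and 2 to 1, 2 and 0. DESeq2 on all 13 mice called 12, 98 and 149 genes, and on the 2 groups 11, 114 and 168. With 4 or 5 mice a group, small changes of the other genes lie inside their intervals.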
